A study of Mus musculus with 10 samples.

Results

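Expression of 10 genes that mark the mural cells of blood vessels was followed in sarcomas of 2 mouse models. The 10 were chosen by name from a count table of 56750 features. Of these, 6 (Acta2, Tagln, Myh11, Cnn1, Actg2 and Lmod1) code for parts of the contractile apparatus of smooth muscle, and 4 (Mcam, Cspg4, Abcc9 and Higd1b) are used as markers of pericytes. All 10 had counts in every tumor and passed the filter on low counts, so none is missing from the comparison. The labelled tissue was whole tumor, and the genes were read in bulk RNA, where fewer cells of a type and less RNA per cell cannot be told apart.

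Tumors of the first model came from dFLEx CDS +/- mice, which carry 1 copy of a CIC::DUX4 transgene at the Rosa26 locus. CIC::DUX4 sarcoma (CDS) is driven by the fusion of CIC, a transcriptional repressor, with the activating end of DUX4. The transgene is driven by the broadly active CAG promoter and is put in the right orientation only by Cre together with FLP recombinase, both delivered as plasmids by electroporation of hind limb muscle. The comparison was with KP sarcomas, from mice of the KP model, whose labelled genotype includes a floxed p53 gene (p53fl/fl). The induction, site and age of the KP tumors were not given in the sources used here. There were 3 dFLEx tumors (170019, 170024 and 170025) and 2 KP tumors (3800 and 3802). RNA of each tumor was split into 2 duplicates before library preparation, so duplicates share a tumor and the tumor is the unit of every comparison below.

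Smooth muscle cells surround arteries and veins and contract through smooth muscle actin and myosin, whose genes are controlled by serum response factor (SRF) and its coactivators of the myocardin family. Pericytes sit on capillaries, hold fewer contractile filaments, and are recruited to the endothelium by PDGF-B acting on PDGF receptor beta. Several of these genes are also used by activated fibroblasts and by tumor cells, so that none of them is exclusive to mural cells. Skeletal muscle, the tissue in which the dFLEx tumors were induced, uses its own actins, myosins and leiomodins, which are relatives of the genes examined here.

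Counts per tumor ran from 20503474 in 3802, of which 1 library was available, to 82138251 in 170025, and levels are given as CPM, the counts scaled by TMM to a common total. The CIC_DUX4 feature was scaled by the tumor totals alone, without TMM. It stood at 89.3, 192 and 409 CPM in 170019, 170024 and 170025, and at 0 and 0.293 CPM in 3800 and 3802, so each tumor matched its label. Tumors also differed in how strongly long and short genes were represented. Genes with over 6000 exonic bases lay at a median of 0.674 on the log2 scale above the mean of the 5 tumors in 170025 and 0.659 above it in 3800. In 170019, 170024 and 3802 those medians were -0.622, -0.149 and -0.551, and genes under 1500 bases lay the other way, at 0.889, 0.298 and 0.268.

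Acta2 and Actg2, the smooth muscle alpha and gamma actins, were compared first because their reads could be confused. Both belong to a family of 4 muscle actins, with Acta1 of skeletal muscle and Actc1 of heart, whose proteins are almost alike and whose coding sequences differ mainly by silent changes. The last 75 coding bases of the 4 genes are shown to make clear how far a read can tell them apart. They were read from GENCODE transcripts (release M39), 5′ to 3′, and capitals mark bases that differ from Acta2.
Acta2: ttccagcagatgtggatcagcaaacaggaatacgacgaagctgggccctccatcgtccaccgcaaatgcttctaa
Actg2: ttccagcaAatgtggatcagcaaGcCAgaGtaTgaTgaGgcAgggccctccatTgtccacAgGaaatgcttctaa
Acta1: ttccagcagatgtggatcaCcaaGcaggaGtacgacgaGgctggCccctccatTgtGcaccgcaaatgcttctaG
Actc1: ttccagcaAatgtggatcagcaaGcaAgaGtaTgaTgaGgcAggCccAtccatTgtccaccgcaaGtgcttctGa
Over these bases Actg2 differs from Acta2 at 12 positions, Acta1 at 8 and Actc1 at 13. Over the whole coding sequence the identity with Acta2 is 84.2% for Actg2, 85.4% for Acta1 and 82.5% for Actc1. The longest run of bases that the Acta2 transcript shares with any of the 3 is 29, against reads of 150 bases, and no stretch of 75 bases of either smooth muscle actin occurs in the transcripts of another gene.

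Acta2 (chromosome 19, 34218490 to 34232990, minus strand, GRCm39) was, per kilobase of exon, the most abundant in every tumor among the genes examined, Tagln aside, and its level was lower in dFLEx tumors. Its level was 144, 87.6 and 252 CPM in 170019, 170024 and 170025, and 306 and 312 CPM in 3800 and 3802. Every dFLEx tumor lay below both KP tumors, which were almost equal, while the dFLEx tumors spread over a 2.88-fold range. The means were 161 ± 83.6 CPM (SD, n = 3) and 309 ± 4.18 CPM (SD, n = 2), which gives a log2 fold change of -0.94 with an SE of 0.60 (edgeR adjusted p = 0.739). The difference between the models did not pass edgeR's test, in which its unadjusted p was 0.157.

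Actg2 (chromosome 6, 83489887 to 83513247, minus strand), the actin of visceral smooth muscle, showed the opposite order and the widest gap of the 10. Its level was 17.0, 9.33 and 26.2 CPM in 170019, 170024 and 170025, and 0.349 and 0.610 CPM in 3800 and 3802. The KP levels rested on 14, 12 and 15 counts in the 3 KP libraries, whereas the dFLEx libraries held between 221 and 1192. The means were 17.5 ± 8.45 CPM (SD, n = 3) and 0.479 ± 0.184 CPM (SD, n = 2), a log2 fold change of 5.21 (SE 0.87). The unadjusted p of edgeR's test was 0.000341, and the p adjusted over 24743 genes was 0.0797, which misses the threshold of 0.05. Actg2 passed that threshold with DESeq2 on the same tumor sums (log2 fold change 5.15, adjusted p = 3.04e-08) and with limma-voom on the libraries (5.63, adjusted p = 0.042). It stayed between 4.78 and 5.66 on the log2 scale when each tumor was left out in turn.

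**Figure D1:**
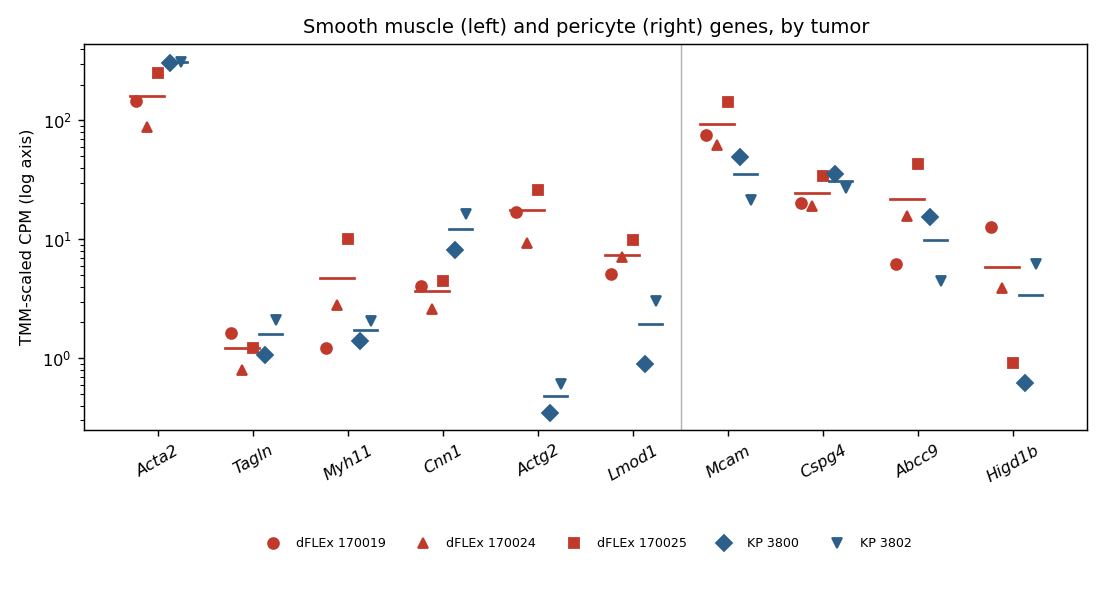
TMM-scaled CPM of the 10 genes (log axis) in each of 5 tumors, red for dFLEx and blue for KP, with a horizontal bar at the mean of each group. Actg2 is the only gene whose groups are separated by more than 10 times, Acta2 and Cnn1 lie lower in every dFLEx tumor, and the points of Higd1b are spread 13.9-fold among dFLEx and 9.93-fold between KP tumors.

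The ratio of Actg2 to Acta2 was nearly constant among dFLEx tumors and far lower in KP tumors. Per kilobase of exon, there were 16.7 reads of Actg2 for every 100 of Acta2 in 170019, 15 in 170024 and 14.7 in 170025. In KP tumors there were 0.161 in 3800 and 0.276 in 3802. The lowest dFLEx ratio was 53.2 times the highest KP ratio, while the dFLEx ratios stayed within 15.5 ± 1.07 (SD, n = 3) although Actg2 itself ranged 2.81-fold among those tumors. This ratio was looked at after the levels had been seen and is given as a description with no test. Set against Actb, the cytoplasmic beta actin, Acta2 gave 5.67, 3.58 and 13.2 per 100 in the dFLEx tumors and 10.7 and 5.95 in KP tumors, so those groups overlapped.

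The striated muscle actins differed between the models in opposite directions. Acta1 stood at 3010, 10350 and 3013 CPM in 170019, 170024 and 170025, and at 532 and 1402 CPM in 3800 and 3802. Its log2 fold change was 2.50 (SE 0.83, edgeR adjusted p = 0.311). Actc1 stood at 3.98, 40.5 and 29.8 CPM in the dFLEx tumors and at 112 and 145 CPM in KP tumors (-2.37, SE 0.88, adjusted p = 0.381). Both groups were separated without overlap, and neither gene passed edgeR's test, whereas limma-voom called both and DESeq2 called neither.

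**Figure D2:**
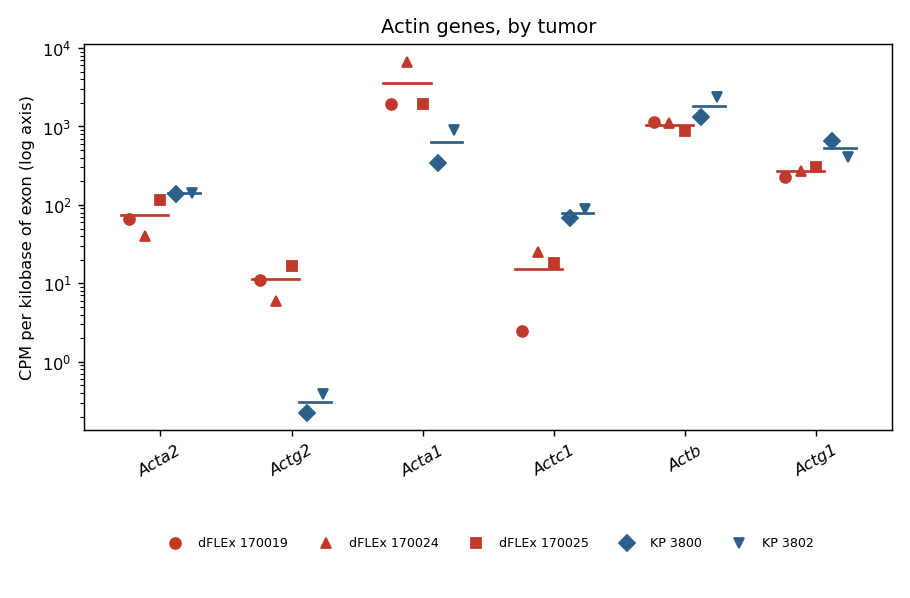
CPM per kilobase of exon (log axis) of the smooth muscle, striated and cytoplasmic actin genes in each tumor, with a bar at each group mean. Acta1 is the highest of the muscle actins in every tumor, and Actg2 lies between 5.99 and 16.8 in dFLEx tumors and at 0.224 and 0.391 in KP tumors.

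Calponin 1, leiomodin 1 and smooth muscle myosin made up the rest of the contractile genes with unobstructed counts. Cnn1 (chromosome 9, 22010512 to 22020926, plus strand) codes for an actin-binding protein that damps myosin activity. Its level was 4.05, 2.60 and 4.46 CPM in 170019, 170024 and 170025, and 8.19 and 16.3 CPM in 3800 and 3802. Like Acta2, it was lower in every dFLEx tumor than in either KP tumor, with means of 3.71 ± 0.977 CPM (SD, n = 3) and 12.3 ± 5.76 CPM (SD, n = 2). The log2 fold change was -1.73 (SE 0.63, unadjusted p = 0.0263, adjusted p = 0.374, edgeR).

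Lmod1 (chromosome 1, 135252545 to 135295803, plus strand) codes for a protein that starts actin filaments in smooth muscle. It was found at 5.12, 7.13 and 9.89 CPM in 170019, 170024 and 170025, and at 0.900 and 3.01 CPM in 3800 and 3802. As for Actg2, the 3 dFLEx levels lay above both KP levels. The log2 fold change was 1.93 (SE 0.79, unadjusted p = 0.0408, adjusted p = 0.438, edgeR). With each tumor left out in turn it ran from 1.46 without 3800 to 3.05 without 3802. Lmod2, its relative of striated muscle, was separated the same way, with 29.9, 61.5 and 26.6 CPM against 7.59 and 12.8 CPM (1.95, SE 0.69, adjusted p = 0.354).

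Myh11 (chromosome 16, 14012399 to 14109236, minus strand), the myosin heavy chain of smooth muscle, did not separate the models. Its level was 1.22, 2.81 and 10.1 CPM in 170019, 170024 and 170025, and 1.40 and 2.07 CPM in 3800 and 3802. One dFLEx tumor, 170025, stood 8.31-fold above another, 170019, and the latter had the lowest level of all 5. The log2 fold change was 1.45 (edgeR SE 0.99, adjusted p = 0.773) and dropped to 0.20 without 170025. Myh14, a nonmuscle myosin heavy chain and a relative of Myh11, stood at 45.8, 154 and 234 CPM in the dFLEx tumors and at 2.08 and 1.95 CPM in KP tumors. Its log2 fold change was 6.16 (SE 0.98, adjusted p = 0.0767), the widest gap among the relatives examined. It did not pass edgeR's test either, and DESeq2 (adjusted p = 9.43e-12) and limma-voom (adjusted p = 0.00932) called it.

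Tagln, which codes for transgelin (SM22 alpha), one of the most widely used markers of smooth muscle, had very low counts in every tumor. Its level was 1.64, 0.798 and 1.21 CPM in 170019, 170024 and 170025, and 1.06 and 2.11 CPM in 3800 and 3802. The groups overlapped, the log2 fold change was -0.38 (edgeR SE 0.85, adjusted p = 0.949), and its sign turned to 0.21 without 3802. 

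The annotation around Tagln limits what these counts measure. Tagln lies on chromosome 9 from 45840917 to 45847356 on the minus strand, and 1349 of its 1988 exonic bases (67.9%) lie under exons of other features. Of these, 1241 bases lie under Gm48529, a long noncoding RNA on the opposite strand (45841410 to 45845036), and 108 under the end of Pcsk7. Strand was not used in the counting, and reads that touch more than 1 gene were assigned to none, so reads over those exons could enter neither count. Gm48529 itself held between 0 and 26 counts per library. Over 50% of exonic bases were covered in this way for 581 of 21630 protein-coding genes (2.69%). Among the other 9 genes examined the share was 2.1% for Mcam, 1.9% for Abcc9 and 0.0% for the remaining 7. How many reads Tagln lost was not tested, and its level is not comparable with that of the others.

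**Figure D3:**
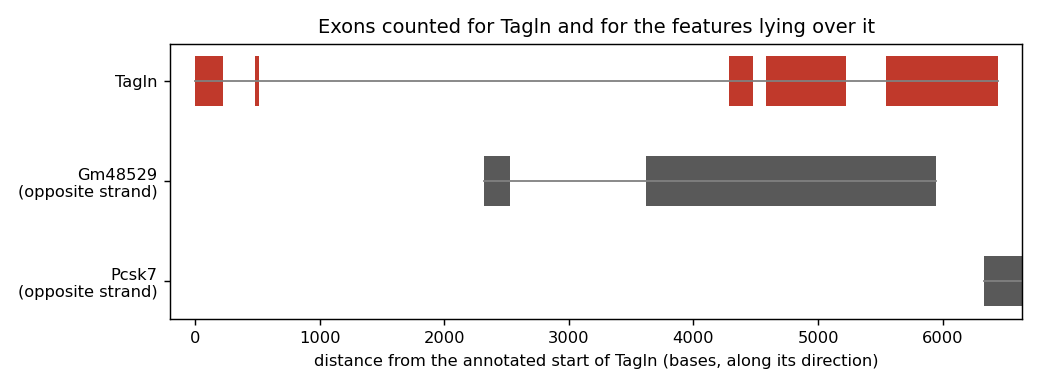
Exons of Tagln (red) and of the features that overlap it (grey), by distance in bases from the annotated start of Tagln along its own direction. Exons of Gm48529 lie over the last 3 exon blocks of Tagln, and the 639 exonic bases left free lie near both ends of the gene.

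SRF binds a DNA element known as the CArG box, a pair of C, then 6 bases that are each A or T, then a pair of G. An exact match, which reads as a match on both strands, was found within 250 bases before the start of the canonical transcript in 1 of the 10 genes, Tagln, against 304 of 21770 protein-coding genes (1.4%). The 100 bases before the Tagln start (GRCm39, chr9:45847405-45847504, minus strand) are printed to show it, 5′ to 3′, with the box in capitals at positions -64 to -55.
Tagln: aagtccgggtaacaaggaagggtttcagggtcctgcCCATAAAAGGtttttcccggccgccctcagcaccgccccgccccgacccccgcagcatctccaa
The lack of these exact letters in the windows of the other 9 genes says nothing about whether SRF acts on them, since boxes with a mismatch or in introns and further upstream were not searched.

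Of the 4 pericyte genes, Mcam was the only one whose groups did not overlap. Among all tested genes, 13.7% lay higher and 11.7% lower in every dFLEx tumor than in either KP tumor. Mcam (chromosome 9, 44045766 to 44054024, plus strand) codes for CD146, an adhesion molecule of pericytes and endothelial cells. Its level was 76.0, 62.3 and 142 CPM in 170019, 170024 and 170025, and 49.1 and 21.6 CPM in 3800 and 3802. The 3 dFLEx levels lay above both KP levels, with a log2 fold change of 1.40 (edgeR SE 0.68, adjusted p = 0.559). Because endothelial cells share this gene, it was set beside Pecam1, the endothelial adhesion molecule CD31, which stood at 85.0, 132 and 206 CPM in the dFLEx tumors and 37.9 and 25.5 CPM in KP tumors. Per kilobase there were 166, 87.6 and 128 reads of Mcam per 100 of Pecam1 in the dFLEx tumors and 241 and 158 in KP tumors, so relative to Pecam1 the groups overlapped.

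Cspg4 (chromosome 9, 56772317 to 56807154, plus strand) codes for the NG2 proteoglycan on the surface of pericytes. It was found at 20.1, 18.9 and 34.2 CPM in 170019, 170024 and 170025, and at 35.2 and 27.2 CPM in 3800 and 3802. The groups overlapped through 170025, and the log2 fold change of -0.36 (edgeR SE 0.58, adjusted p = 0.928) went to 0.01 without 3800. Pdgfrb, the receptor through which pericytes are recruited, stood at 41.4, 62.0 and 141 CPM against 46.9 and 34.1 CPM. Per kilobase, Cspg4 came to 22.3, 14 and 11.1 reads per 100 of Pdgfrb in dFLEx tumors and to 34.4 and 36.7 in KP tumors.

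Abcc9 (chromosome 6, 142533588 to 142648041, minus strand) codes for SUR2, the regulatory subunit of the potassium channel that closes when ATP is plentiful. Its level was 6.22, 15.8 and 43.2 CPM in 170019, 170024 and 170025, and 15.3 and 4.43 CPM in 3800 and 3802. The dFLEx tumors spanned a 6.95-fold range that contained 3800, and the log2 fold change was 1.14 (edgeR SE 0.95, adjusted p = 0.838). Kcnj8, the pore-forming partner of SUR2, gave a much narrower picture, with 30, 18.8 and 21.4 CPM in the dFLEx tumors and 6.65 and 4.63 CPM in KP tumors (2.05, SE 0.63, unadjusted p = 0.0119, adjusted p = 0.264). The subunits of the channel did not follow the same order over the 5 tumors, and Abcc9 ran from 6.31 to 61.4 reads per 100 of Kcnj8 per kilobase among dFLEx tumors alone.

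Higd1b (chromosome 11, 102726675 to 102728866, plus strand) codes for a small mitochondrial protein that is highly enriched in pericytes of several organs. Its level was 12.6, 3.90 and 0.907 CPM in 170019, 170024 and 170025, and 0.618 and 6.14 CPM in 3800 and 3802. It varied more than any other of the 10 within a model, 13.9-fold among dFLEx tumors and 9.93-fold between KP tumors, and the log2 fold change of 0.79 (edgeR SE 1.25, adjusted p = 0.924) turned to -0.57 without 170019. With 847 exonic bases it is also the shortest of the 10, and its high tumors, 170019, 3802 and 170024, are those in which genes under 1500 bases lay above the mean of all tumors. Abcc9 and Myh11, with 8373 and 7599 exonic bases, were both highest in 170025, where long genes lay above that mean. Myh11 was lower in 3800, where long genes also lay above that mean, than in 3802, where they lay below it. Actg2, with 1557 exonic bases, was highest in 170025 as well. Removing each tumor's trend with gene length left log2 fold changes of 0.38 for Higd1b, 1.10 for Abcc9 and 0.96 for Myh11, none of them past the test. Before the removal they were 0.79, 1.14 and 1.45, and the median over all tested genes also moved, from -0.18 to -0.39. Whether gene length shaped these levels was not tested.

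Over all 10 genes, edgeR's test called 0 at an adjusted p under 0.05, where 0.182% of the 24743 tested genes were called. At an unadjusted p under 0.05 there were 3, Actg2 and Lmod1 higher and Cnn1 lower in dFLEx tumors, where 10.6% of all genes reached it. DESeq2, by which 6.53% of all genes were called, limma-voom (2.78%) and edgeR with no filter on low counts (1.98%) each called 1, Actg2. With libraries taken as independent samples, which ignores that duplicates share a tumor, 4 were called (17.1% of all genes), and with the duplicate number as a block 3 (12.7%). The log2 fold change was above 0 for 6 and below 0 for 4, with a median of 0.97 beside -0.18 over all genes. Every dFLEx tumor lay above every KP tumor for 3 (Actg2, Lmod1 and Mcam), where 13.7% of all genes did, and below for 2 (Acta2 and Cnn1), where 11.7% of all genes did. The remaining 5 overlapped. Left with 170019 and 170024 alone in the dFLEx group, the median of the 10 dropped to 0.18. In 170025, 8 of the 10 had their highest dFLEx level, where 38.5% of all tested genes did.

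**Figure D4:**
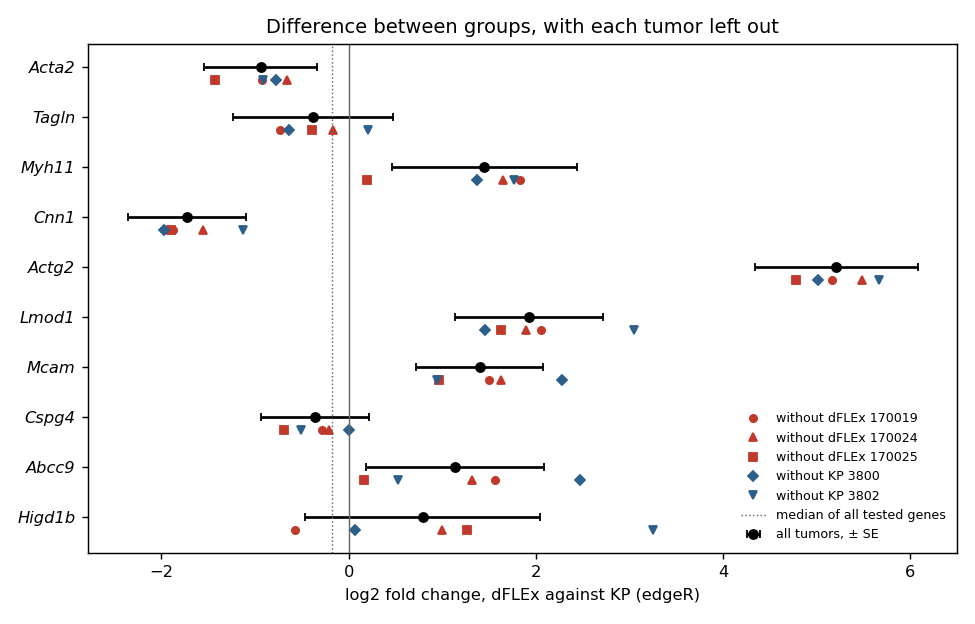
Log2 fold change of dFLEx against KP for each gene, with the edgeR estimate from all tumors (black, ± SE) and the estimates with each tumor left out below it, and a dotted line at the median of all tested genes. Actg2 lies at 4.78 or above whichever tumor is left out, whereas Tagln, Cspg4 and Higd1b cross 0.

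The summed levels of the gene groups differed between the models in opposite directions. Acta2 made up most of the smooth muscle sum in every tumor, and Mcam most of the pericyte sum in dFLEx tumors only. The 6 smooth muscle genes came to 173, 110 and 304 CPM in 170019, 170024 and 170025, and to 318 and 336 CPM in 3800 and 3802. The 4 pericyte genes came to 115, 101 and 220 CPM in the dFLEx tumors and to 100 and 59.4 CPM in KP tumors. Neither sum overlapped between the models, and the tumors were permuted exactly (two-sided), which gave p = 0.2 for each, the smallest p that 10 splits of 3 against 2 tumors allow. Acta2 made up 83.2%, 79.4% and 82.9% of the first sum in the dFLEx tumors and 96.3% and 92.8% in KP tumors. Without it the sum was 29.1, 22.7 and 51.9 CPM in the dFLEx tumors and 11.9 and 24.1 CPM in KP tumors, so that the groups overlapped (exact permutation p = 0.4), the direction turned, and the log2 ratio went from -0.74 to 0.94. The median log2 fold change of the 6 smooth muscle genes was likewise above 0, at 0.53. Mcam made up 66.1%, 61.8% and 64.4% of the second sum in the dFLEx tumors and 49.0% and 36.4% in KP tumors. Without it the sum was 38.9, 38.6 and 78.3 CPM against 51.0 and 37.8 CPM, and the groups overlapped (exact permutation p = 0.8, log2 ratio 0.23). The full second sum also depended on scaling, since with library totals in place of TMM the groups overlapped (exact p = 0.6) and the log2 ratio went from 0.87 to 0.61.

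Per kilobase of exon, Acta2 and Mcam were the highest in both models among the 9 genes other than Tagln, which was left out of this order because most of its exonic bases could give no count. In dFLEx tumors the mean was 73.4 ± 38.1 CPM per kilobase for Acta2, 27.9 ± 12.7 for Mcam and 11.3 ± 5.43 for Actg2 (SD, n = 3), followed by Higd1b at 6.86, Abcc9 at 2.60, Cspg4 at 2.04, Lmod1 at 1.87, Cnn1 at 1.35 and Myh11 at 0.621. Of neighbours in that order, only Mcam and Actg2 had ranges that did not overlap. In KP tumors the order was Acta2 at 141 ± 1.90 CPM per kilobase and Mcam at 10.5 ± 5.79 (SD, n = 2), then Cnn1 at 4.48, Higd1b at 3.99, Cspg4 at 2.61, Abcc9 at 1.18, Lmod1 at 0.495, Actg2 at 0.308 and Myh11 at 0.228. There Acta2 and Mcam, Mcam and Cnn1, and Cspg4 and Abcc9 were apart, and Actg2 had gone from the third to the eighth place.

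The wider programs to which the 10 belong were read from lists of 69 related genes, all of which could be tested. None of the 69 passed edgeR's test, 14 had an unadjusted p under 0.05 (12 higher and 2 lower in dFLEx tumors), where 10.6% of all genes did, and DESeq2 called 6, where it called 6.53% of all genes, and limma-voom 7, where it called 2.78%. Their median log2 fold change was 0.39, and 18 were higher and 9 lower in dFLEx tumors without overlap, where 13.7% and 11.7% of all genes were. Among 18 other contractile genes the log2 fold change was above 0 for 10 and below 0 for 8, with 2 separated in each direction, a share near the 13.7% and 11.7% of all genes. Itga8, the integrin alpha 8 chain of smooth muscle and pericytes, was one of those higher in dFLEx tumors, with 25.6, 19.9 and 88.7 CPM against 10.8 and 2.23 CPM (2.78, SE 1.02, adjusted p = 0.377), and DESeq2 called it (adjusted p = 0.0375).

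Among SRF and its regulators the log2 fold change was below 0 for 6 of 8, and the groups overlapped for 7. Srf had 17.7, 42.2 and 47.9 CPM in the dFLEx tumors and 78.3 and 46.0 CPM in KP tumors. Myocd, which codes for myocardin, stood below 1 CPM in every dFLEx tumor and at 0 and 1.71 CPM in 3800 and 3802. The exception was Foxf1, a forkhead factor of visceral mesenchyme and its smooth muscle, with 50.9, 29.6 and 70.1 CPM in 170019, 170024 and 170025, and 0.403 and 2.11 CPM in 3800 and 3802. Its log2 fold change was 5.34 (SE 1.03, unadjusted p = 0.000846, adjusted p = 0.103, edgeR), close to that of Actg2, and DESeq2 (adjusted p = 1.12e-07) and limma-voom (adjusted p = 0.0138) called it.

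Of 17 other genes of the pericyte program, the log2 fold change was above 0 for 13, with 5 separated upward and 1 downward (13.7% and 11.7% of all genes) and a median of 0.39. Their summed level was 827 to 1503 CPM in dFLEx tumors and 262 to 510 CPM in KP tumors (exact permutation p = 0.2, again the smallest possible). Rgs5, a regulator of G protein signaling and the most abundant of them, stood at 826, 473 and 776 CPM in the dFLEx tumors and at 249 and 16.5 CPM in KP tumors (2.38, SE 1.05, adjusted p = 0.491). The 4 genes below 0 were P2ry14 (-1.20), Heyl (-1.26), Foxs1 (-1.15) and Tbx18 (-0.90). P2ry14, the 1 separated downward, stood at 1.29, 1.37 and 1.45 CPM in the dFLEx tumors and 3.24 and 3.09 CPM in KP tumors. Cox4i2 and Ndufa4l2, mitochondrial genes that mark pericytes as Higd1b does, were separated between the models where Higd1b was not. They are short too, with 788 and 1095 exonic bases, and like Higd1b were highest in 170019 and lowest in 3800. Genes under 1500 bases had their highest median in 170019 (0.889) and their lowest in 3800 (-0.747). The cause of the separation was not tested. Cox4i2 had 172, 27.1 and 51.4 CPM against 2.14 and 8.49 CPM (3.98, SE 1.11, adjusted p = 0.22), and Ndufa4l2 had 90.8, 49.4 and 42 CPM against 3.64 and 15.2 CPM (2.69, SE 0.84, adjusted p = 0.273). DESeq2 called Cox4i2 (adjusted p = 0.0011) and Ndufa4l2 (adjusted p = 0.0275), and limma-voom called Cox4i2 (adjusted p = 0.0451) and Rgs5 (adjusted p = 0.0283).

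Of 10 genes by which vessels recruit mural cells, 4 were higher and 1 was lower in every dFLEx tumor than in either KP tumor, where 13.7% and 11.7% of all genes were. Pdgfb, the ligand of PDGF receptor beta, stood at 35.8, 59.5 and 83.8 CPM against 23.9 and 18.4 CPM, and Dll4, a Notch ligand of endothelial cells, at 21.5, 19.0 and 37.4 CPM against 9.34 and 4.47 CPM. The gene that was lower, Cdh2, codes for N-cadherin, which joins pericytes to endothelium, and stood at 12.1, 11.4 and 33.8 CPM against 117 and 46.4 CPM (-2.09, SE 0.73, adjusted p = 0.342). None passed edgeR's test.

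**Figure D5:**
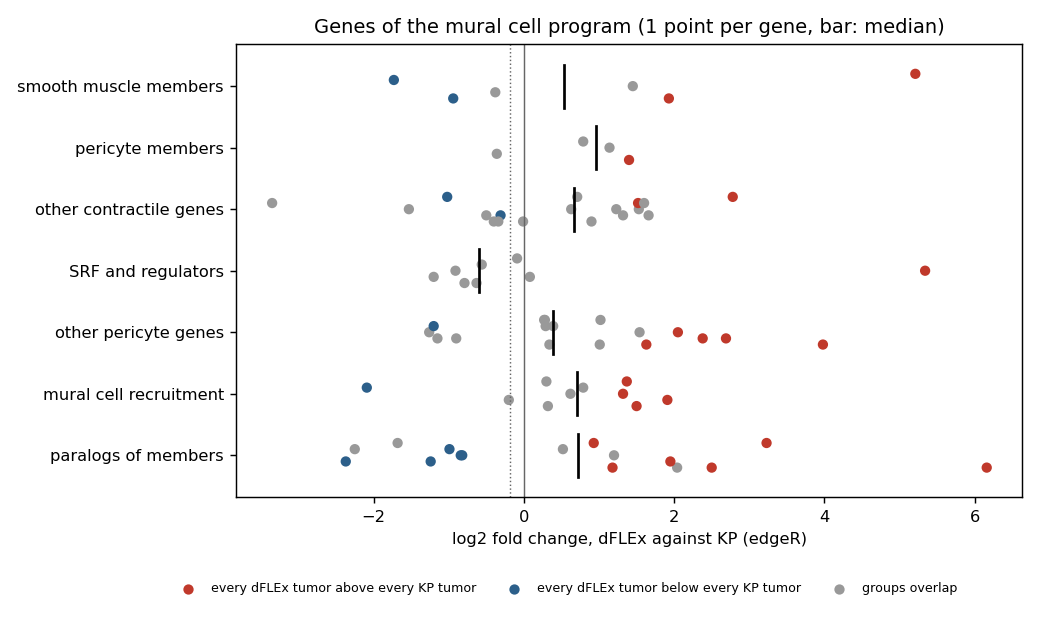
Log2 fold change of dFLEx against KP, 1 point per gene, for the smooth muscle and pericyte genes and 5 lists of related genes, with a black bar at each median and a dotted line at the median of all tested genes. Foxf1 is the single point far to the right among SRF and its regulators, and most red points of the pericyte and recruitment lists lie between 1 and 4.

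Markers of other cell types were read beside these genes, and 0 of them passed edgeR's test. Over all tested genes the log2 fold change was above 0 for 10803 of 24743. Endothelial markers had a log2 fold change above 0 for 8 of 8, with a summed level of 383 to 585 CPM in dFLEx tumors and 190 to 229 CPM in KP tumors. Skeletal muscle markers were above 0 for 9 of 9, with 7591 to 29013 CPM against 1051 to 3721 CPM. Fibroblast markers were above 0 for 9 of 9 as well, with 4569 to 14207 CPM against 2159 to 4858 CPM, and Schwann cell markers for 5 of the 5 that could be tested, with 31.8 to 71.2 CPM against 9.22 to 13.3 CPM. Macrophage markers went the other way, with 7 of 8 below 0 and 578 to 769 CPM against 1296 to 4125 CPM. The summed levels overlapped between the models for fibroblast markers (exact permutation p = 0.4). For the other marker lists they did not overlap (exact permutation p = 0.2 for each, the smallest possible). No marker was at 0 in all tumors. Their part in the levels of the smooth muscle and pericyte genes was not tested. Summed fibroblast and endothelial markers, like 8 of the 10 genes, were highest among dFLEx tumors in 170025, whereas summed skeletal muscle markers and Acta1 were highest in 170024, the tumor in which Acta2, Cnn1 and Actg2 were lowest among the dFLEx tumors.

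Last, the genes with the most similar profile over the 5 tumors were looked up among the 10024 genes whose mean reached 10 CPM. The profile of each group was the mean of its members' centered log2 levels, and members went different ways. Of the 6 smooth muscle genes, 3 had a log2 fold change above 0 and 3 below, from 5.21 for Actg2 to -1.73 for Cnn1. Of the 4 pericyte genes, 3 were above 0 and 1 below. The nearest genes are therefore near the mean and need not resemble any single member. For the smooth muscle genes the profile was 0.12 in 170019, -0.14 in 170024, 0.96 in 170025, -0.87 in 3800 and -0.08 in 3802, and the nearest genes by root mean square difference were Tsku (0.140), Flt1 (0.154), Nrp1 (0.198), Slc1a5 (0.201) and Hmox1 (0.216). For the pericyte genes it was 0.27, 0.10 and 0.47 in the dFLEx tumors and -0.40 and -0.45 in KP tumors, and the nearest were Scfd2 (0.063), Rab10os (0.090), Arglu1 (0.097), Pctp (0.104) and Sgk1 (0.104). Flt1 and Nrp1 code for a receptor and a coreceptor of VEGF. Genes of the lists used here were left out of this search, so none of them could be among the nearest 5. With 5 tumors such likeness is a description only.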

How the data were processed

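Bulk RNA of 5 tumors was sequenced as rRNA-depleted, paired-end libraries. The authors trimmed reads with Trimmomatic (version 0.39), aligned them with STAR (version 2.7.10a) to mm39 with the construct added, and deposited raw counts per gene made with featureCounts (Subread version 2.0.3). Per the file headers, strand was ignored, chimeric pairs and pairs with 1 aligned mate were left out, and reads on several genes or with several alignments were not counted. Mates were counted singly, so a pair adds 2 counts, and counting error exceeds what the totals would give. Of 10 labelled libraries 9 had columns, and 3802 entered with its first library alone (its second was not analysed here). Library totals ran from 20503474 to 46302223, and 3 counts corresponded to 0.0648 to 0.146 CPM. Symbols came from GENCODE M39 for 56017 of 56750 features.

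Libraries of a tumor were summed. Over 40 pairs of duplicates (10 genes in 4 tumors), the median ratio of the higher to the lower level was 1.12 and the largest 2.38. Groups were taken from the genotype labels (1 part of the KP genotype is not reported here) and compared with edgeR (version 4.0.16, R 4.3.3) by filterByExpr, TMM, glmQLFit and glmQLFTest with Benjamini-Hochberg adjustment over 24743 genes and a threshold of 0.05. Fold changes are dFLEx over KP on the log2 scale, and the SE is that value over the root of the F statistic. Single values were compared by exact two-sided permutation over tumors (SciPy 1.17.1). Nothing in the labels tells whether tumors came from separate litters or days, so p-values measure the spread between these tumors. The likeness of profiles used log2(CPM + 0.1). The script for the fit was tested on simulated data.

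Alternatives were DESeq2 (version 1.42.0), limma-voom (limma version 3.58.1) with tumors as random effects, the libraries as independent samples with and without the duplicate number as a block, other scalings and filters, 1 library per tumor, and each tumor left out. Removal of the length trend (loess, span 0.3) and sums without Tagln, Acta2 or Mcam were added after seeing the data. The genes examined were given by name, the related genes by lists of their programs, and genes outside these by likeness (the 5 nearest). The members and lists were chosen with earlier results of these data known.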

Additional observations from a re-analysis of the deposited data

How the results depend on the processing

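Of the 10 genes, 0 passed an adjusted p of 0.05 in edgeR on tumor sums, 4 passed with libraries as independent samples (Actg2, Lmod1, Mcam and Cnn1, where 17.1% of all genes did), and 1, Actg2, passed with limma-voom (2.78% of all genes), DESeq2 (6.53%) or no filter (1.98%). With the duplicate number as a replicate block, 3 passed (Actg2, Lmod1 and Cnn1, where 12.7% of all genes did), and duplicates with the same number shared only a number, since the differences between duplicates correlated between -0.012 and 0.016 over 6 pairs of tumors. Of the 69 related genes, 0 passed in the first fit (0.182% of all genes), 22 with independent libraries and 15 with the block. With limma-voom 7 passed, with DESeq2 6 and with no filter 5. Myh14 alone passed with a mean of at least 1 CPM (0.521% of all genes) and with the length trend removed (0.978%). With a dFLEx tumor left out 0 passed, where at most 0.0385% of all genes did. Without 3802, which leaves 1 KP tumor, the log2 fold change of Foxf1 was 6.97. The median log2 fold change of the 10 was 0.97 and ran from 0.18 without 170025 to 1.16 with tumors left out. Reversed signs were 0.21 for Tagln without 3802 (range with tumors left out -0.73 to 0.21), 0.01 for Cspg4 without 3800 (-0.69 to 0.01) and -0.57 for Higd1b without 170019 (-0.57 to 3.25). Over 16 alternatives for each gene, 147 of 160 fits kept the direction and the side of the threshold, 10 kept the direction and passed it, and 3 reversed. Keeping the side of the threshold says little where hardly any gene could pass it. Of all tested genes, 0% passed without 170019, 0% without 170024 and 0.0385% without 170025. The log2 ratio of the smooth muscle sum stayed between -1.21 and -0.45 except without Acta2, where it was 0.94, and that of the pericyte sum between 0.44 and 1.29 except without Mcam, where it was 0.23. Library totals in place of TMM moved the median of all genes from -0.18 to -0.47 and that of the 10 from 0.97 to 0.64. With 2 KP tumors, 1 of them with a single library of 20503474 counts, a gene near the Actg2 level in KP tumors rests on under 20 counts per library, and the causes of these changes were not tested.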
